A study of Mus musculus with 2 samples.

Results

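The genes for the proteins of the mitochondrial ribosome (mitoribosome) were taken as the rows whose symbol begins with Mrpl or Mrps and a digit, 77 of the 23282 rows in the tables. Of these, 48 are named for the large subunit (Mrpl) and 29 for the small subunit (Mrps). The question asked of them was whether their mRNAs differed between induced regulatory T (iTreg) cells cultured with and without an HDAC6 inhibitor, and whether the large and the small subunit differed in this. The cells came from wild-type (WT) C57BL/6 female mice aged 7 to 10 weeks: naïve CD4+ T cells from the spleen were activated through CD3 and CD28 and given TGF-β1, IL-2 and antibodies that neutralise IFN-γ and IL-4, which is the culture that turns them into Treg cells. The control culture received the vehicle DMSO and the TSA culture received 10 µM Tubastatin A (TSA), and both were harvested at day 1. A single library was made per condition (1 set of biological samples), so every difference below is between 2 libraries and no test across replicates was possible.

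Mitochondria keep a small genome of their own, and the few proteins it encodes, all of them subunits of the oxidative phosphorylation (OXPHOS) complexes, are made on the mitoribosome. Its RNAs come from mitochondrial DNA, but all of its proteins are encoded in the nucleus, made on cytosolic ribosomes and imported. Part of them descend from bacterial ribosomal proteins and part were added during mitochondrial evolution. A T cell that leaves quiescence enlarges its mitochondria and raises their protein synthesis, so these genes are part of the early activation programme.

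Levels are given as whole reads recovered from the deposited log2 values. A change is the deposited TSA value minus the control value, on the scale of log2(normalised read count + 1). The libraries held 10846023 reads (control) and 10432287 reads (TSA). The 95% interval beside a fold change is the exact Clopper-Pearson interval of a gene's TSA share of reads. It covers counting error only, and it compares the libraries, not the conditions. In all, 12164 genes had at least 10 reads in at least 1 library and are called tested genes here. All 77 members were among them, with 103 to 2983 reads per library. Of T cell genes, the 7 markers examined held 16219 and 16575 reads together (control and TSA), while summed reads of other cells' markers were 90 and 75 (myeloid, control and TSA), 80 and 88 (CD8 T and NK cell) and 33 and 49 (erythroid). Ncr1 was at 0 reads in the control library, and Klrb1c and Hba-a2 in both. In RNA from whole cultures, fewer cells of a type and less RNA per cell cannot be told apart.

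Promoters of the members are shown first, because all 77 matched 1 protein-coding gene each in GENCODE M21 and 68 of them had a promoter window in RefSeq (build GRCm38.p6, 250 bases before to 50 after the start site). The windows below belong to the pair of members with the largest decrease (Mrps7 and Mrps15) and the pair with the largest increase (Mrpl24 and Mrpl14) in the TSA library. Capitals mark the only 2 motif matches found in them. In Mrps7 the match was to the YY1 motif AAGATGGC, 18 bases after the start site, and in Mrps15 to CCAAT (motif of the factor NF-Y), read on the other strand, 42 bases after it.
Mrps7, chr11:115603890-115604189, plus strand: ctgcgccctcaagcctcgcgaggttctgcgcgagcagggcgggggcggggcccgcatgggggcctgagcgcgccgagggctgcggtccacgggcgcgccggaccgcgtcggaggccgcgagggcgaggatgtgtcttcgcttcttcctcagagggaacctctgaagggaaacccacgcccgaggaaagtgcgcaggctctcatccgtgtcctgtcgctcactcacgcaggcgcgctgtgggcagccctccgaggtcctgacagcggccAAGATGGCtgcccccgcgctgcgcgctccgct
Mrps15, chr4:126046678-126046977, plus strand: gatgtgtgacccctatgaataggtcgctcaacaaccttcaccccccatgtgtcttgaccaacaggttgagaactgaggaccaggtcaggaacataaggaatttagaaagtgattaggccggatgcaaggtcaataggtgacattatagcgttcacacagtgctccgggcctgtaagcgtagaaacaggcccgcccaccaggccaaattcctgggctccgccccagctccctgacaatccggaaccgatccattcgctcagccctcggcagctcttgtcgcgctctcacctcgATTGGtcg
Mrpl24, chr3:87919294-87919593, plus strand: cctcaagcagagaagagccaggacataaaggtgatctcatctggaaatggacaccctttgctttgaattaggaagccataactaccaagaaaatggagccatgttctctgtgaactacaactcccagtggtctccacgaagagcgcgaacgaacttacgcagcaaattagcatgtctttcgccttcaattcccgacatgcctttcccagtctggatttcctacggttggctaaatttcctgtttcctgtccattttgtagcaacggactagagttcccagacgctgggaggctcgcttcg
Mrpl14, chr17:45686099-45686398, plus strand: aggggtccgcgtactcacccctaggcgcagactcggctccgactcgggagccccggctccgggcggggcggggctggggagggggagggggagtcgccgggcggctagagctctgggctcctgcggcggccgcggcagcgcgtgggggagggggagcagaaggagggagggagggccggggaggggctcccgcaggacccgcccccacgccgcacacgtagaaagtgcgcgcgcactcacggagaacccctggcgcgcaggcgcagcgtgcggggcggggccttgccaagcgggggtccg

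Short motifs were searched on both strands of these windows. Mitochondrial genes in the nucleus are known for binding sites of NRF1, of the ETS factor GABP and of YY1. The NRF1 core GCATGCGC was in 8 of 68 member windows (11.8%), against 7.09% of the 6304 windows of tested genes with a mean normalised count of at least 100. The ETS/GABP core CCGGAAG was in 25 (36.8%), against 24.8%. The YY1 motif was in 12 (17.6%), against 6.55%. At least 1 of these 3 motifs was in 37 of 68 member windows (54.4%) and in 29.5% of the windows of all tested genes. The other motifs were not more frequent in members: CCAAT was in 39.7% of member windows against 43.0%, TATAAA (bound by TBP) in 7.35% against 7.80%, and the E-box CACGTG, which the factor Myc can bind, in 7.35% against 12.6%. These matches describe letters in a window and are not evidence of binding. The NRF1 core lies inside a palindrome, so that 1 site can match on both strands.

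**Figure D1:**
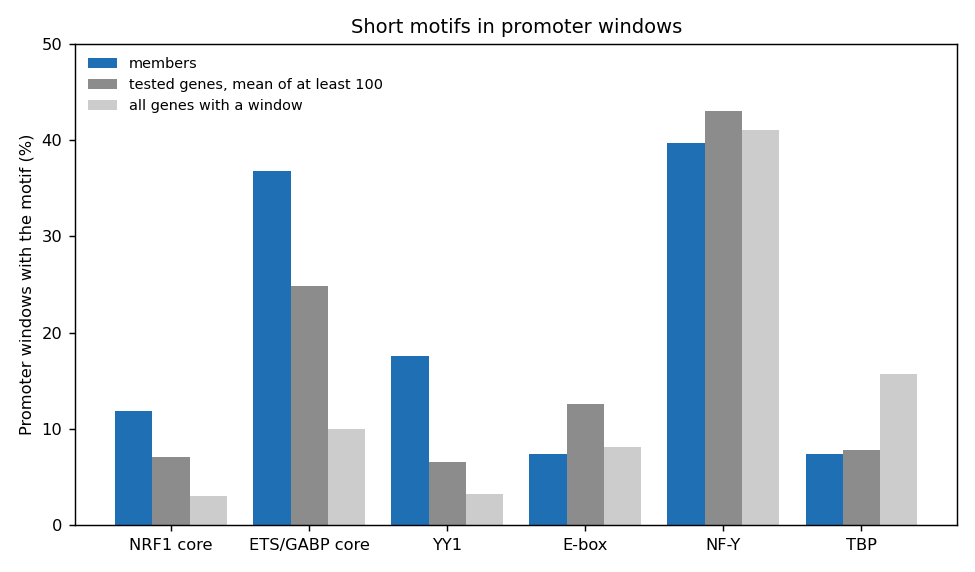
Percent of promoter windows (y axis) that hold each motif (x axis), for the 68 members with a window (blue), tested genes with a mean normalised count of at least 100 (dark grey) and all 27025 genes with a window (light grey). Members exceed both backgrounds for NRF1, ETS/GABP and YY1, with 17.6% against 6.55% and 3.19% for YY1, and not for the NF-Y motif.

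Across the whole family, most members had fewer reads in the TSA library, by a small amount each. The median log2 fold change of the 77 members was -0.18 (quartiles -0.37 and -0.04, range -0.81 to 0.53), against 0.02 for all tested genes and -0.06 for the 8188 tested genes with a mean normalised count of at least 100. Of the 77, 59 (76.6%) were lower at any size, where 48.6% of all tested genes and 57.1% of those with a mean of at least 100 were lower. Summed over the members, reads went from 73736 (control) to 65979 (TSA), a fold of 0.886 (95% interval 0.877 to 0.895) after normalisation. They made up 0.68% of all control reads and 0.632% of all TSA reads.

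For 46 members (59.7%) the 95% interval lay below no change, and for 10 (13.0%) above it. The background of the first call was 28.0% of all tested genes and 36.5% of those with a mean of at least 100. That of the second was 28.1% and 23.4%. The remaining 21 members had an interval that held no change. No member passed the 2-fold threshold that the study used, in either direction. Among tested genes, 3.15% were lower and 11.5% higher by more than 2-fold, and among those with a mean of at least 100, 1.31% and 1.48%. At 1.5-fold, 5 members were lower and 0 higher, against 8.34% lower and 18.7% higher of all tested genes and 5.90% lower and 6.05% higher of those with a mean of at least 100. The decrease therefore lay in many small differences, most but not all of one direction, and not in a few large ones.

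How far these counts depended on the scaling of the libraries was examined with 5 other scalings. With total reads in place of the deposited scaling, 53 members were lower, 33 with an interval below and 11 with one above no change, and the median was -0.11. The same scaling moved all tested genes from 3405 calls below and 3416 above no change to 2631 and 4096, and their median to 0.09. A scaling shifts the log2 fold changes of all genes alike, so only the calls and the place of 0 depended on it.

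**Figure D2:**
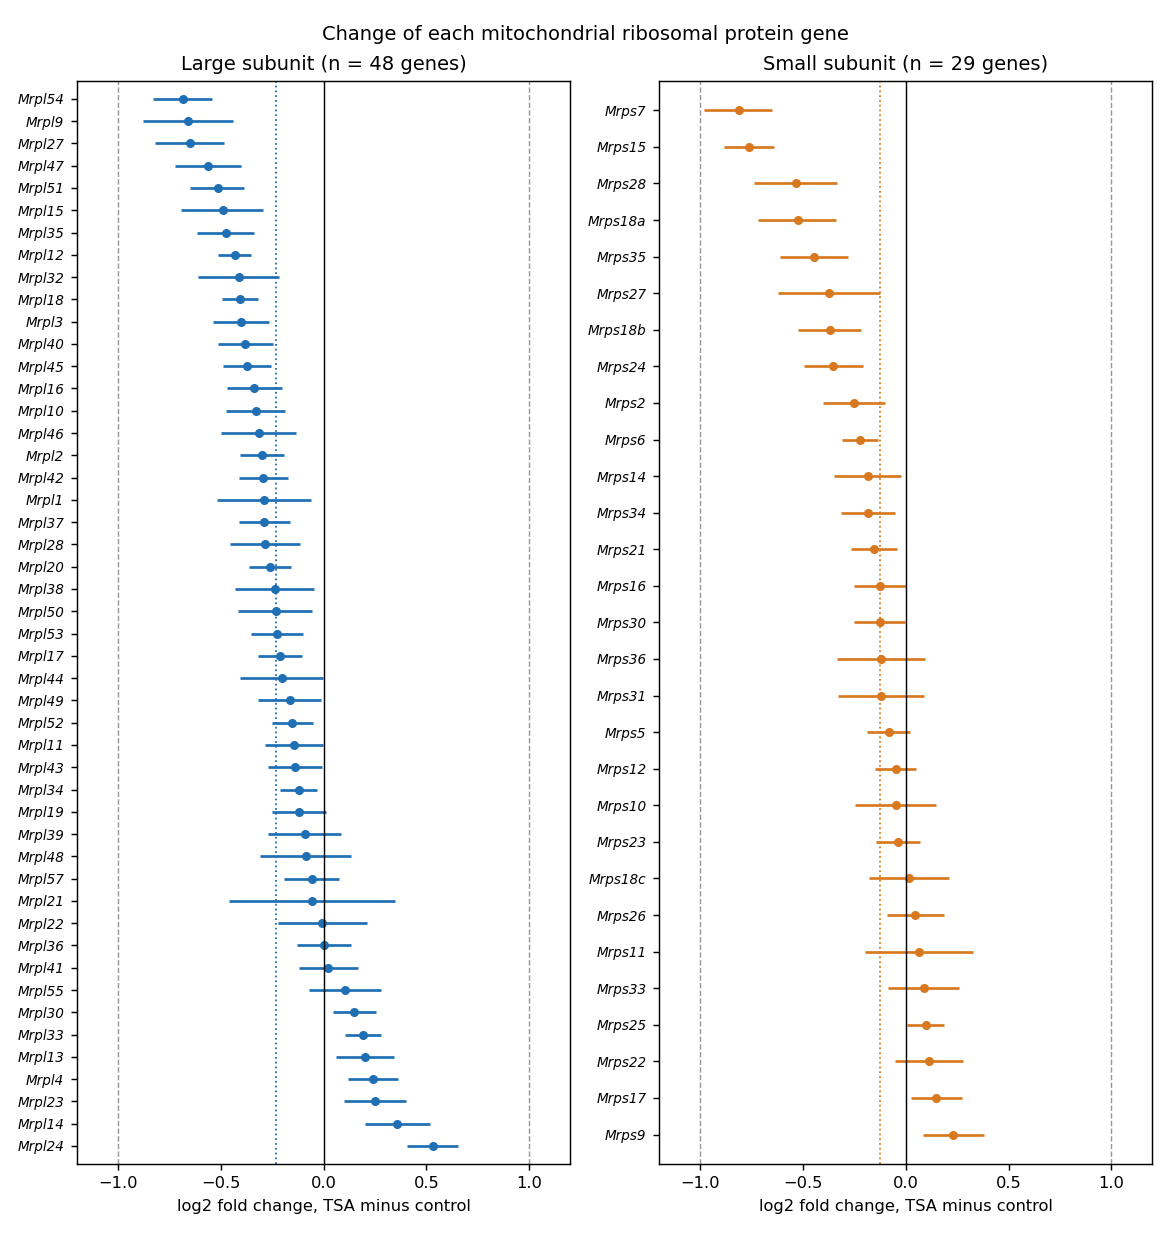
Log2 fold change (TSA minus control, x axis) of every member of the large (blue, left) and the small subunit (orange, right), ordered by value. Bars are 95% intervals of counting error, the dotted line is the subunit's median, and dashed lines mark 2-fold. No point reaches a dashed line, and 46 bars lie wholly to the left of 0.

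The members with the largest decreases belonged to both subunits. Mrps7, a protein of the head of the small subunit (chr11:115603925-115608036, plus strand, GRCm38), had 829 control and 476 TSA reads. Its fold was 0.569 (0.507 to 0.637), the lowest of the family. Its 3′ end overlaps an exon of Mif4gd on the other strand, and whether the counting used strand is not given in the sources used here. Mrps15, an early rRNA-binding protein of the small subunit (chr4:126046925-126055532, plus strand), had 1476 and 879 reads, a fold of 0.590 (0.542 to 0.642). In the large subunit, Mrpl54, which has no bacterial counterpart, had 1022 and 642 reads (0.622, 0.563 to 0.687). Mrpl9, the counterpart of bacterial L9, had 446 and 285 reads (0.634, 0.543 to 0.736). Mrpl27, whose bacterial counterpart reaches into the catalytic centre, had 754 and 485 reads (0.638, 0.567 to 0.715). Mrpl27 carries a stretch at its 3′ end with a near-identical copy in Pqlc1, so its reads are less certain. These were the 5 members lower by more than 1.5-fold. They were followed by Mrpl47 with 774 and 529 reads, Mrps28 with 492 and 343, and Mrps18a with 558 and 391, at log2 fold changes of -0.56, -0.53 and -0.53.

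The members with the largest increases were mostly large subunit genes, but so are 48 of all 77 members. An interval above no change was found for 14.6% of large and 10.3% of small subunit members, against 23.4% of tested genes with a mean of at least 100. All of those named here have bacterial counterparts, a type that took in 29 of 48 large and 16 of 29 small subunit members. Mrpl24, an early assembly protein at the exit of the peptide tunnel (chr3:87919506-87923672, plus strand), had 915 control and 1334 TSA reads. Its fold of 1.44 (1.33 to 1.57) was the highest of the family. Its 3′ end overlaps Rrnad1 on the other strand. Mrpl14, which lies at the face that meets the small subunit (chr17:45686322-45698495, plus strand), had 582 and 754 reads, a fold of 1.28 (1.15 to 1.43). Mrpl23, another protein of the tunnel exit, had 661 and 794 reads (1.19, 1.07 to 1.32), and a processed copy, Mrpl23-ps1, shares its 3′ end. Mrpl4, whose bacterial counterpart lines the tunnel, had 1017 and 1213 reads (1.18, 1.09 to 1.29). Mrps9, of the head of the small subunit, had 691 and 819 reads (1.17, 1.06 to 1.30). The changes of Mrpl13, Mrpl33, and of Mrpl30 and Mrps17, which tied at the eighth place, were 0.20, 0.19, 0.15 and 0.15 on the log2 scale. Their reads were 764 and 888, 1920 and 2215, 1413 and 1582, and 1007 and 1127, in the order control and TSA.

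Comparing the subunits, the large one had the lower median. Of its 48 members, 38 (79.2%) were lower, 32 (66.7%) with an interval below and 7 (14.6%) with one above no change. The median log2 fold change was -0.23 (quartiles -0.37 and -0.06). Among tested genes with a mean of at least 100, 57.1% were lower, 36.5% with an interval below and 23.4% with one above. In all tested genes these shares were 48.6%, 28.0% and 28.1%. Of the 29 small subunit members, 21 (72.4%) were lower, 14 (48.3%) with an interval below and 3 (10.3%) with one above. Their median was -0.13 (quartiles -0.35 and 0.02). The medians thus differed by -0.10, large minus small, while the SD of the changes was 0.27 among large and 0.26 among small subunit members. Genes of 1 subunit are not replicates, so this difference was not tested. With total reads without Rn45s, the medians were -0.15 (large, 23 intervals or 47.9% below) and -0.042 (small, 17 lower, 10 intervals or 34.5% below). Under that scaling, 26.3% of tested genes with a mean of at least 100 and 20.6% of all tested genes had an interval below no change. Summed reads went from 47336 to 42024 in the large subunit (fold 0.879, 0.868 to 0.891) and from 26400 to 23955 in the small one (fold 0.899, 0.883 to 0.914), and these intervals overlap. The large subunit held 64.2% (63.8 to 64.5) of all member reads in the control library and 63.7% (63.3 to 64.1) in the TSA library, so the balance of the subunits' mRNAs moved by less than 1 percentage point.

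Symbols do not always match the place of a protein. Structures put Mrps18a and Mrps30 in the large subunit, and Mrps36 has since been assigned to the 2-oxoglutarate dehydrogenase complex. With Mrps18a and Mrps30 counted as large, the medians were -0.23 for 50 large and -0.12 for 27 small subunit members, a difference of -0.11. The Mrps18 paralogues descend from 1 bacterial protein and sit at different places of the mitoribosome. Mrps18a, in the large subunit, had 558 control and 391 TSA reads (fold 0.695, 0.608 to 0.791). Mrps18b, in the small subunit, had 806 and 630 (0.774, 0.696 to 0.860). Mrps18c, the one that keeps the bacterial position, had 425 and 434 (1.01, 0.883 to 1.16). So 2 of the 3 paralogues were lower beyond counting error and the intervals of Mrps18a and Mrps18c did not overlap. The 3′ ends of Mrps18b and Mrps18c overlap or resemble other genes. Mrps30 had 1093 and 1011 reads (0.916, 0.840 to 0.999, a call lost with scaling to total reads), and Mrps36 had 379 and 352 (0.920, 0.793 to 1.07).

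Split by descent, the members without a bacterial counterpart in the large subunit were the class with the largest share of lower genes. Of these 19, 17 (89.5%) were lower, 14 with an interval below and 0 above no change, and the median log2 fold change was -0.23 (range -0.68 to 0.10). Their summed fold was 0.844 (0.825 to 0.863). The 29 large subunit members of bacterial type had a similar median of -0.26 but a wider range of -0.66 to 0.53, with 21 (72.4%) lower, 18 intervals below and 7 above. With total-read scaling, 8 of the 19 (42.1%) and 15 of the 29 (51.7%) kept an interval below no change. The order of these shares thus turned. Under that scaling, 27.8% of tested genes with a mean of at least 100 had such an interval. With the deposited scaling, 57.1% of these genes were lower, 36.5% with an interval below and 23.4% with one above. For all tested genes these shares were 48.6%, 28.0% and 28.1%. In the small subunit, the 16 members of bacterial type had a median of -0.14 (12 lower, 8 intervals below, 2 above) and a summed fold of 0.874 (0.855 to 0.894). With total reads without Rn45s their median was -0.056, with 9 lower and 6 intervals below. The 10 without a bacterial counterpart had a median of -0.08 and a summed fold of 0.954 (0.925 to 0.983). Total reads without Rn45s turned that median to 0.006. Of these 10, 6 (60.0%) were lower, 4 (40.0%) with an interval below and 1 with one above. The first 2 shares lay near the 57.1% and 36.5% of genes with a mean of at least 100. The 1 above was Mrps25, with 1882 and 2031 reads (fold 1.07), and its 3′ end overlaps Nr2c2 on the other strand.

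By role, intervals lay below no change for 3 of 3 members of the stalk, 3 of 3 of the peptidyl transferase region, 4 of 5 of the central protuberance and 3 of 6 of the peptide exit, where 2 lay above. In tested genes with a mean of at least 100, the shares were 36.5% below and 23.4% above. With scaling to total reads the counts below were 2, 3, 3 and 3, against 27.8% of those genes. The stalk recruits the GTPases of translation. Mrpl12, its mobile protein and the member with the most reads, had 2983 control and 2231 TSA reads, a fold of 0.741 (0.701 to 0.783). Mrpl10, which anchors it, had 897 and 720 (0.795, 0.720 to 0.878), and Mrpl11, at the stalk base, had 859 and 786 (0.906, 0.822 to 0.999). All 3 were lower beyond counting error, although with scaling to total reads the interval of Mrpl11 held no change. The 3′ end of Mrpl10 overlaps Gm11574 on the other strand. Around the peptidyl transferase centre, where the peptide bond is made, Mrpl2 had 1613 and 1323 reads (0.812), Mrpl3 had 998 and 763 (0.757) and Mrpl16 had 1048 and 838 (0.792). All 3 intervals lay below no change.

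The central protuberance sits on top of the large subunit, where bacteria hold a 5S rRNA, and contacts the tRNAs. Mrpl18, whose bacterial counterpart binds the 5S rRNA, had 2391 and 1821 reads in control and TSA (fold 0.754, 0.709 to 0.802). Mrpl38 had 485 and 415 (0.847), Mrpl40 had 1056 and 819 (0.768) and Mrpl46 had 545 and 442 (0.803). The intervals of these 4 lay below no change, that of Mrpl38 not with scaling to total reads. The 3′ end of Mrpl40 holds a repeat-like stretch with copies in 9 other genes. Mrpl48, the fifth, had 347 and 330 reads, a fold of 0.942, and its interval held no change.

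At the peptide exit, where the new chain leaves towards the inner membrane, the 6 proteins went in both directions. Mrpl47 had 774 control and 529 TSA reads (fold 0.677, 0.605 to 0.757). Mrpl45, which ties the ribosome to the inner membrane, had 1372 and 1070 (0.773, 0.712 to 0.837). Mrpl17 had 1520 and 1326 (0.864, 0.802 to 0.931). These 3 were lower beyond counting error, whereas Mrpl23 and Mrpl24, described above, were higher. Mrpl22 had 352 and 354 reads (0.996, 0.857 to 1.16). The range of log2 fold changes in this group, -0.56 to 0.53, covered most of that of the family. The 3′ ends of Mrpl22 and Mrpl45 have near-identical copies in Gm6997 and B130021K23Rik. In the decoding centre of the small subunit, Mrps12, the counterpart of the bacterial streptomycin-target protein, had 1663 and 1623 reads (0.966, 0.902 to 1.04), which did not differ beyond counting error.

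**Figure D3:**
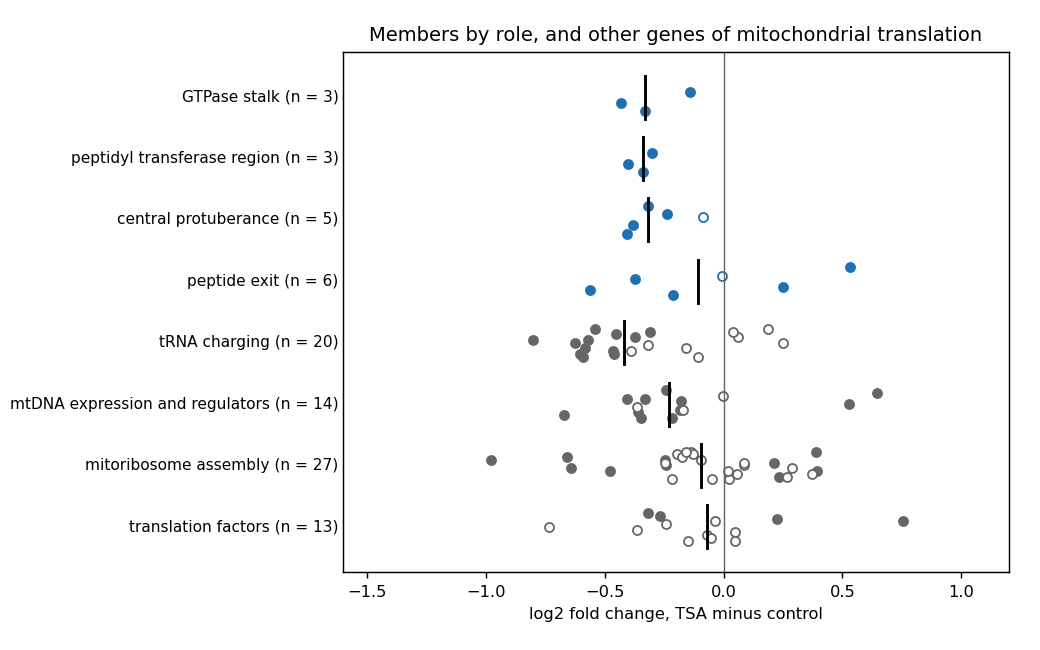
Log2 fold change (TSA minus control, x axis) of single genes, with members of the large subunit by role in blue and other genes of mitochondrial translation in grey. Filled points have a 95% interval off no change, open points do not, the vertical offset of points within a row has no meaning, and black bars are medians. The stalk, peptidyl transferase region and central protuberance lie wholly below 0, and the tRNA charging genes have the lowest median, -0.42.

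Levels of the members spread over 28.1-fold in the control library, although in the assembled particle nearly all of them occur as 1 copy. QuantSeq reads a transcript once, near its 3′ end, so counts were not divided by transcript length. The control median was 863 normalised counts (quartiles 552 and 1152) and the TSA median 782. The highest large subunit members by mean level were Mrpl12, Mrpl18, Mrpl33 and Mrpl34 (2033 and 1887 reads). In the small subunit they were Mrps6 (2351 and 2033), Mrps25, Mrps12 and Mrps5 (1513 and 1441). The lowest were Mrpl21 (106 and 103) and Mrpl1 (355 and 293) in the large subunit, and Mrps11 (235 and 248) and Mrps27 (313 and 244) in the small one. The order of levels was much alike in both libraries (Spearman's rho 0.94, Pearson's r 0.95 of log2 values over the 77 genes, a description across genes that share 2 libraries). Split by mean level, the lowest 26, the middle 25 and the highest 26 members had median changes of -0.20, -0.18 and -0.15, so the decrease was not limited to low or high members.

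**Figure D4:**
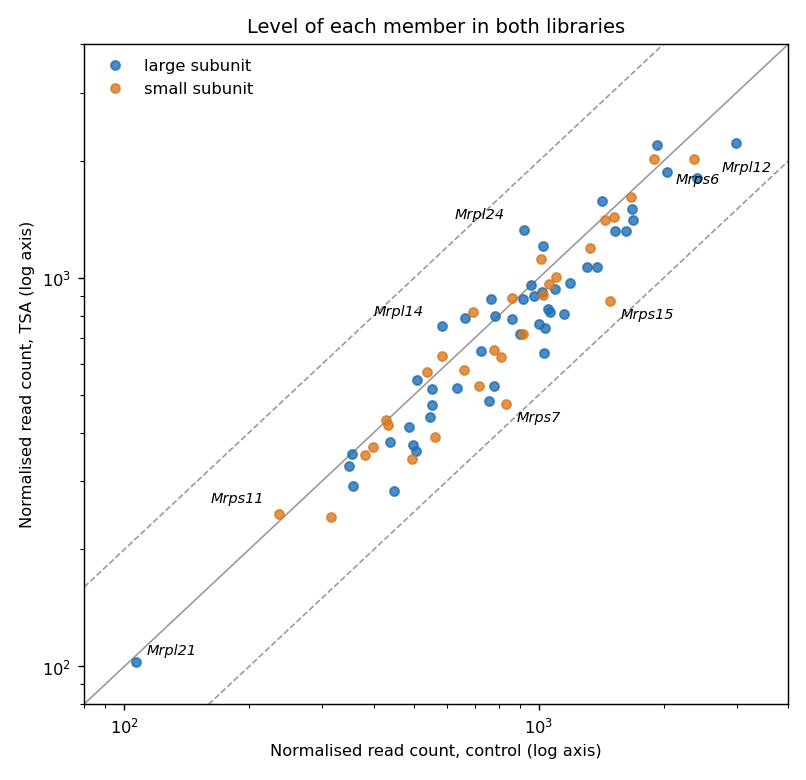
Normalised read count of each member in the control (x axis) and the TSA library (y axis), both on log axes, with large subunit members in blue and small ones in orange. The solid line marks equal levels and dashed lines 2-fold. Most points lie below the solid line, Mrps7 and Mrps15 come closest to the lower dashed line, and Mrpl24 and Mrpl14 lie farthest above equality.

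The cytosolic ribosome and the OXPHOS complexes did not show this pattern. Of 83 tested genes for cytosolic ribosomal proteins, 36 were lower, 28 (33.7%) with an interval below and 38 (45.8%) with one above no change. Their median log2 fold change was 0.02. The background of these calls was 36.5% and 23.4% of tested genes with a mean of at least 100, and 28.0% and 28.1% of all tested genes. Of 79 tested nuclear genes for OXPHOS subunits, which work beside the products of the mitoribosome, 40 were lower. Their intervals lay below no change for 27 (34.2%) and above it for 22 (27.8%), and their median was -0.01. The medians of the members, -0.23 and -0.13, lay below both. With scaling to total reads, the cytosolic genes had 13 intervals below and 51 above no change and the OXPHOS genes 15 and 37. Under that scaling the background was 27.8% and 30.2% of tested genes with a mean of at least 100. The cytosolic genes held 9.56% of control and 10.3% of TSA reads, and the OXPHOS genes 1.67% and 1.73%.

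**Figure D5:**
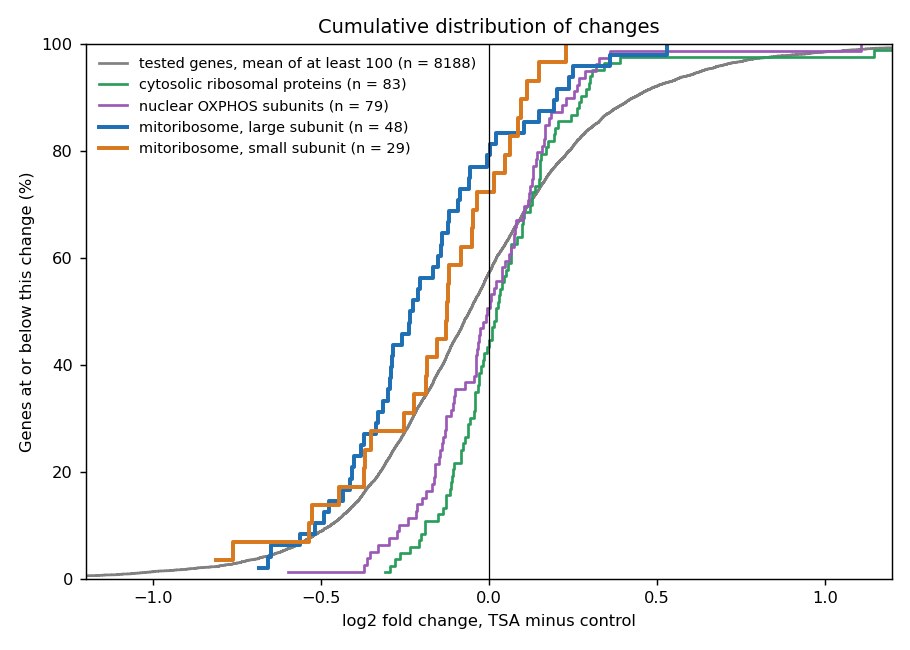
Percent of genes (y axis) at or below each log2 fold change (TSA minus control, x axis) for large (blue) and small subunit members (orange), cytosolic ribosomal proteins (green), nuclear OXPHOS subunits (purple) and tested genes with a mean normalised count of at least 100 (grey). The axis is limited to changes within 1.2 of 0. Below 0 lie 79.2% of large and 72.4% of small subunit members, and 57.1% of the genes in grey.

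Mitoribosomal proteins that carry other symbols were mostly lower too. Of 6 such genes, 5 were lower, all with an interval below no change (background 28.0% and, with a mean of at least 100, 36.5%), and the median log2 fold change was -0.32. Ict1, the file's name for Mrpl58, a peptide release enzyme built into the large subunit, had 926 control and 717 TSA reads. Gadd45gip1 had 2005 and 1572 reads, Ptcd3 had 866 and 694, Aurkaip1 had 1333 and 1090, and Chchd1 had 1841 and 1579. The exception was Dap3, a GTP-binding protein of the small subunit, with 1175 and 1261 reads (log2 fold change 0.09), whose interval lay above no change with total-read scaling.

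The other steps of mitochondrial translation were uneven. Of 20 genes that charge mitochondrial tRNAs, 16 were lower, 12 with an interval below and 0 above no change (28.0% and 28.1% of all tested genes), and the median log2 fold change was -0.42. With scaling to total reads these became 10 and 2. The phenylalanine enzyme Fars2 had 118 control and 68 TSA reads, and the tryptophan enzyme Wars2 had 89 and 58. The least changed of the 12 were Pars2, the proline enzyme, with 162 and 126, and Gatc, a subunit of the amidotransferase that makes glutaminyl-tRNA, with 232 and 189, and both lost this call with total-read scaling. Translation factors, in contrast, had a median of -0.07, which total reads without Rn45s turned to 0.013. Of 13, only Mrrf (414 and 335) and Mtif3 (747 and 627) had an interval below no change. Only Oxa1l (469 and 554) and Gfm2 (191 and 326) had one above. These were 15.4% each way, under the 28.0% and 28.1% of all tested genes. Mrrf and Gfm2 recycle the ribosome together, Mtif3 starts translation and Oxa1l inserts the new chains into the membrane.

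Genes for assembly of the mitoribosome had a median of -0.09, and of -0.023 with total-read scaling. Of 27 intervals, 6 (22.2%) lay below and 4 (14.8%) above no change (3 and 5 with total-read scaling). The shares of 22.2% and 14.8% were under those of all tested genes, 28.0% and 28.1%. The lowest were Mterf3, with 114 and 58 reads, and the rRNA methyltransferase Rnmtl1 (now Mrm3), with 199 and 127. The highest were Mtg1, a GTPase of large subunit assembly, with 160 and 212, and Mterf4, which brings an rRNA methyltransferase to the large subunit, with 159 and 211. Of 14 tested genes for mitochondrial DNA expression and for its regulators, 9 (64.3%) had an interval below and 2 (14.3%) above no change, and the median was -0.23. The background was 28.0% and 28.1% of all tested genes, and 36.5% and 23.4% of those with a mean of at least 100. Tfam, which packs and transcribes mitochondrial DNA, had 894 control and 776 TSA reads, Nrf1 had 506 and 398, and Myc had 1312 and 1170. The lowest were the coactivator Pprc1 (528 and 334) and Gabpa (298 and 227), the DNA-binding subunit of GABP. The only ones above no change were Polrmt, the mitochondrial RNA polymerase (144 and 228), and the coactivator Ppargc1b (265 and 386). Yy1 had 1414 and 1257 reads (log2 fold change -0.18). Of the factors named for the promoter motifs above, Nrf1, Gabpa and Yy1 were lower beyond counting error, with total-read scaling too, while Gabpb1, the other subunit of GABP, had 527 and 472 reads (0.888, 0.782 to 1.01). With that scaling 8 of the 14 kept an interval below no change, without Myc, and with Rn45s left out of the total 5 did, without Yy1, Tfam and Tfb2m as well. Transcripts of mitochondrial DNA were not analysed here.

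Grouped by promoter motif, the 12 members with the YY1 motif, 10 of them lower, had a median log2 fold change of -0.32 and the other 56 with a window -0.14. For the NRF1 core the medians were -0.27 (8 members) and -0.15, and for the ETS/GABP core -0.13 (25 members) and -0.22. In tested genes with a mean of at least 100, the corresponding medians were -0.08 and -0.06 for YY1 and for the NRF1 core, and -0.10 and -0.04 for the ETS/GABP core. The YY1 motif often stood at one place: 8 members held it on their own strand 11 to 36 bases after the RefSeq start site. In 6 of these the ATG inside it was an annotated start codon (not in Mrpl37 and Mrpl42). The stretches are shown because they share this position, with the motif in capitals and up to 10 bases on either side (GRCm38.p6).
Mrpl37, chr4:107066823-107066850, minus strand: tgcacgggcaAAGATGGCggcgtccagg
Mrpl35, chr6:71823744-71823771, minus strand: ggcaggctgcAAGATGGCggcttccatc
Mrpl42, chr10:95501905-95501932, minus strand: agattgaagcAAGATGGCgagcgcgcgg
Mrps24, chr11:5707652-5707675, minus strand: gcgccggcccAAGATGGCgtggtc
Mrps7, chr11:115604148-115604175, plus strand: gacagcggccAAGATGGCtgcccccgcg
Mrps27, chr13:99344790-99344817, plus strand: ggtgcgctccAAGATGGCggctcccatg
Mrps18a, chr17:46111005-46111032, plus strand: ggtgcgttccAAGATGGCggccctcagg
Mrpl49, chr19:6057722-6057749, minus strand: ttgaggcgccAAGATGGCagcagcggtg

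All 8 members in this group were lower in the TSA library with an interval below no change, and their median log2 fold change was -0.36, against -0.13 for the other members with a window. With scaling to total reads the interval of Mrpl49 held no change. They ranged from -0.17 (Mrpl49) to -0.81 (Mrps7), with Mrps18a at -0.53 and Mrpl35 at -0.48. The position was chosen after the values were seen, and both members with the motif that were not lower hold it elsewhere. In tested genes with a mean of at least 100, 209 of 6304 windows held the motif on the gene's own strand anywhere after the start site. Of these, 136 (65.1%) were lower, 91 (43.5%) with an interval below, with a median of -0.09 against -0.06 without it. Over all tested genes, 235 windows held it there, with a median of -0.08 against 0.02 without it. Both backgrounds include the members.

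Many members begin close to a neighbour on the other strand. A gene transcribed the opposite way began within 500 bases of the start of 25 of 77 members (32.5%), against 14.4% of 11099 tested protein-coding genes. These starts are those of GENCODE genes, which for some members lie away from the RefSeq start sites of the windows. Mrpl46 and Mrps11, a large and a small subunit gene whose start sites lie 412 bases from each other and whose 5′ ends overlap, are such a pair. Mrpl46 had 545 control and 442 TSA reads (fold 0.803, 0.707 to 0.912) and Mrps11 had 235 and 248 (1.04, 0.871 to 1.25), so 1 of this pair was lower and the other did not differ beyond counting error. Of the 22 other members with a tested partner, 18 were lower. Of the partners, 15 were lower, where 48.6% of all tested genes and 57.1% of those with a mean of at least 100 were. This says nothing of a link within pairs, which was not tested. The partners had a median log2 fold change of -0.30.

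Partners differed from pair to pair. Mrpl51 had 1146 and 809 reads and its neighbour Ncapd2, a condensin subunit, had 1870 and 1195. Mrps12 had 1663 and 1623 reads while Sars2, which charges the mitochondrial serine tRNA from a start site 172 bases away, had 105 and 71. Mrpl32 had 494 and 374 reads (0.751, 0.654 to 0.859), while the proteasome gene Psma2 had 6830 and 7978, a log2 fold change of 0.21. Next to Mrps7, the lowest member, Gga3 had 312 and 322 reads. The 25 members with such a neighbour had a median of -0.23 and the other 52 one of -0.15.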

How the data were processed

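Naïve CD4+ T cells in Treg-inducing culture with DMSO or TSA were harvested at day 1, and 1 QuantSeq 3′ library per condition was sequenced by the authors as single-end 75-nt reads and analysed with ExDEGA. The submitters' processing notes name Bowtie2, bedtools and mm10. The normalization and the strand setting are not given in the sources used here. The deposited values are log2 of a normalised count plus 1, prepared by the authors.

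Each deposited value was back-transformed and divided by what 1 read was worth (1.00498 and 0.99515 normalised counts), which gave whole reads, within 0.1, for 99.9% and 99.8% of values up to 300 reads. Rounding of the deposited values limits a member's reads to within 1 read. The total of 10846023 and 10432287 reads makes a floor of 3 reads equal to 0.277 and 0.288 CPM. Rn45s, the rRNA precursor, took 8.72% and 9.63% of reads. PCR copies could not be told from other molecules, so intervals cover counting error only. Changes are deposited TSA minus control values, for tested genes, those that reached 10 reads in either library. With 1 library per condition no p-value was computed. The steps were tested on simulated data. Tools were matplotlib 3.10.9, pandas 2.3.3, scipy 1.17.1 and numpy 2.4.6 under Python 3.11.15 and, for copies of the last 300 bases of each member (at least 95% identity over at least 75 bases), blastn 2.17.0.

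Samples were grouped by their treatment labels. Members and lists were chosen with earlier results of these data known. Members named are the 8 lowest and 8 highest by change among those with a mean of at least 100, the 4 highest and 2 lowest by level in each subunit, those of the 4 role lists, the Mrps18 paralogues, Mrps30, Mrps36, Mrps12 and Mrpl58. From other lists, the 2 lowest and 2 highest genes with an interval off no change are named, with Myc, Tfam and Nrf1. Mrpl9, Mrpl35 and other single genes were named after their values were seen. The result of 1 marker list is not reported here. Ftsj2 and Rnmtl1 were matched to Mrm2 and Mrm3. Alternatives were 5 scalings, other filters, pseudocounts and thresholds, and changed membership.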

Additional observations from a re-analysis of the deposited data

How the results depend on the processing

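With scaling to total reads, the median log2 fold change was -0.11 for all members, -0.16 for the large and -0.056 for the small subunit, and the summed fold was 0.930. Without Rn45s in that total the values were -0.10, -0.15, -0.042 and 0.940, and with the upper quartile -0.14, -0.19, -0.084 and 0.913. Each scaling multiplies all genes of a library by 1 factor, and these 3 moved every log2 fold change up by 0.07, 0.09 and 0.04. They took away the call of 13, 13 and 8 members, added one for 1, 2 and 0, and changed the sign of 6, 7 and 2 members, 0 of them called. Adding Dap3, Ptcd3, Chchd1, Aurkaip1, Gadd45gip1 and Ict1 moved the member median to -0.21, and the 1.5-fold threshold gave 5 members in place of 0. Without the 21 members whose 3′ end overlaps or resembles another gene, 6 intervals lay above no change and the summed fold was 0.871. The other alternatives (trimmed mean of M-values, median of ratios, pseudocounts of 0.1 and 5, filters, Mrps18a and Mrps30 counted as large, Mrps36 left out) kept the direction of every median recomputed under them, and the first 2 also that of the sum. Leaving out pseudogene rows changed nothing, since no member is one. The sum was not recomputed under the others. No paired analysis was possible because each condition has 1 library and no test was made. For the same reason no replicate could be left out. A member with about 100 reads, such as Mrpl21, could not show a change within its interval of 0.727 to 1.27.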
